A study of Homo sapiens with 6 samples.

Results

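The genes described here are 10 genes that move Ca2+ between the cytosol and the organelles that store it: the ryanodine receptors RYR1, RYR2 and RYR3, the inositol 1,4,5-trisphosphate (IP3) receptors ITPR1, ITPR2 and ITPR3, the sarco/endoplasmic reticulum Ca2+ pumps ATP2A2 and ATP2A3, the pore of the mitochondrial uniporter MCU, and the endoplasmic reticulum (ER) sensor STIM1. They were taken by gene symbol from the 57123 genes of the count tables, and all 10 were among the 25125 genes that passed the filter on low counts. They were chosen by their CPM in WT against MUL1(-/-) libraries, with that comparison known, so the values of these genes between genotypes are given as a description, and no p is given for them. HEK293 is a cell line made from human embryonic kidney. RNA was sequenced from 3 libraries of HEK293 wild type (WT) cells and 3 libraries of HEK293 MUL1(-/-) cells, in which the gene of the mitochondrial E3 ubiquitin ligase MUL1 was inactivated with CRISPR-Cas9. Both were grown in the same medium with fetal calf serum, and the labels give no further treatment, age of culture or clone for a library. The methods describe quantitative data in general as coming from independent experiments, but neither they nor the labels give the clone or culture of a library, so part of the spread between libraries may be technical.

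Release of Ca2+ from the ER runs through IP3 receptors, which open when IP3 and Ca2+ bind, and through ryanodine receptors, which open on Ca2+ itself or, in skeletal muscle, by contact with a plasma membrane channel. SERCA pumps return the ion to the ER lumen, STIM1 senses a falling store and opens ORAI channels at the plasma membrane, and MCU carries Ca2+ from sites of release into the mitochondrial matrix. Ryanodine receptors are best known from muscle and brain, whereas IP3 receptors and the SERCA2 pump are found in most cells.

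Counts summed over exon bins came to 127015142 to 142803296 per WT library and 121917971 to 122441959 per MUL1(-/-) library. Levels are given as CPM (counts relative to the library total) scaled by TMM normalization factors, and comparisons between genes use CPM per kb of exon bins. The targeted gene MUL1 had 15.4, 15.2 and 19.0 CPM in WT and 18.7, 16.7 and 19.2 CPM in MUL1(-/-) libraries. Its groups overlapped, the log2 fold change was 0.14 ± 0.10 (SE), and edgeR's quasi-likelihood test gave an adjusted p of 0.321. MUL1 RNA therefore does not separate the genotypes, and MUL1(-/-) stands here for libraries with that label. RNA levels do not measure the protein. By Western blot, the paper reports that substrate proteins of MUL1 accumulated in HEK293 MUL1(-/-) cells. All 10 of the HEK293 and embryonic kidney line genes examined had a mean of at least 1 CPM, but their sum was lower in MUL1(-/-), 972 to 1144 CPM against 1340 to 1561 CPM in WT, with PAX2 3.47-fold and KRT8 1.91-fold lower. Of 10 striated muscle genes, 3 reached that level, and the list summed to 19.95 to 22.55 CPM in WT and 25.8 to 27.0 CPM in MUL1(-/-) libraries. By edgeR's adjusted p, 4 of the muscle genes rose, namely ACTA1 (3.00-fold), TNNT2 (2.69-fold), CKM (2.36-fold) and TTN (1.42-fold), and 1 fell, TNNI3. The first 3 had low levels, with means of 0.643, 0.191 and 0.161 CPM in WT and 1.93, 0.523 and 0.386 CPM in MUL1(-/-). DES, MYH6, MYH7 and MYOD1 did not pass. The muscle transcription factors MYOD1 and MYOG had means of 0.278 and 0.033 CPM in WT and 0.231 and 0.048 CPM in MUL1(-/-). Of 6 blood cell genes, 0 reached 1 CPM, with sums of 1.11 to 1.77 CPM against 2.02 to 2.62 CPM. Of 6 endothelial and fibroblast genes, 3 did, with sums of 25.2 to 32.6 CPM in WT and 29.6 to 38.4 CPM in MUL1(-/-). By the same test 1 of the HEK293 list rose and 4 fell, 2 of the blood list rose and 0 fell, and 4 of the endothelial and fibroblast list rose and 1 fell. All these counts, with those of the muscle list, stand beside 18.8% of all tested genes that rose and 18.7% that fell. The part of other cells or of these marker changes in the results below was not tested.

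The ryanodine receptor RYR2, the channel that releases Ca2+ in heart muscle and neurons, showed the largest difference of the 10 genes between the genotypes. RYR2 had 15.85, 17.99 and 15.76 CPM in the 3 WT libraries and 89.7, 88.0 and 92.5 CPM in the 3 MUL1(-/-) libraries. The lowest MUL1(-/-) library lay far above the highest WT library, and the spread within each genotype was small, with means of 16.5 ± 1.26 and 90.1 ± 2.30 CPM (SD, n = 3). The log2 fold change was 2.45 ± 0.08 (SE), a 5.45-fold higher level.

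The difference was not even along RYR2. The gene lies on the plus strand of chromosome 1 at 237042205-237833988 (GRCh38), and its longest transcript in GENCODE 29, RYR2-202, has 105 exons. Exons 1 to 17 differed less between the genotypes, with a log2 ratio of 0.40 and overlapping groups. The runs of exons from 18 on were higher in all MUL1(-/-) libraries, with log2 ratios of 2.35 to 2.89. The place where the counts part is the intron between exons 17 and 18, at chr1:237469188-237491805, which is 22618 bases long and begins 426983 bases into the gene. This division was chosen after the counts were seen. The sequences of both exons, read from the GENCODE 29 transcript, are given with the 10 bases next to the intron in capitals:
RYR2 exon 17, chr1:237469092-237469187: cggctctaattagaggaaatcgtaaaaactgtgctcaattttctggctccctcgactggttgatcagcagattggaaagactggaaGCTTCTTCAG
RYR2 exon 18, chr1:237491806-237491924: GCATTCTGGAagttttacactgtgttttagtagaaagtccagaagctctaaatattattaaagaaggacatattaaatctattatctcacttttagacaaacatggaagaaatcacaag

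Exon 17 held 8, 19 and 8 counts in WT and 22, 11 and 13 counts in MUL1(-/-) libraries, so that its groups overlapped. Exon 18 held 15, 22 and 13 counts in WT and 69, 67 and 80 counts in MUL1(-/-) libraries. The ratio of mean CPM was 1.41 in exon 17 and 4.58 in exon 18, and stayed at 4.81, 4.82 and 5.86 in exons 19, 20 and 21. On the other side of the intron it was 1.35, 1.26 and 1.21 in exons 14, 15 and 16. Most of the change of ratio thus lay between these neighbouring exons, and the ratio was higher again, 7.42, over exons 84 to 105.

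Summed over exons 1 to 17, RYR2 had 1.86, 2.21 and 1.64 CPM in WT libraries and 2.95, 2.77 and 1.82 CPM in MUL1(-/-) libraries. These groups overlapped, since the third MUL1(-/-) library was below the second WT library. The log2 ratio of the means was 0.40, and it ran from 0.27 to 0.59 when each library was left out in turn. Summed over exons 18 to 105, the levels were 13.99, 15.78 and 14.11 CPM in WT and 86.8, 85.2 and 90.7 CPM in MUL1(-/-) libraries. That log2 ratio was 2.58, a 5.99-fold higher level, with 2.55 to 2.64 when each library was left out. Exons 1 to 17 carried 10.4% to 12.3% of the RYR2 counts of a WT library and 1.96% to 3.29% of those of a MUL1(-/-) library.

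Per length, both stretches of RYR2 stood at the same level in WT cells and at different levels in MUL1(-/-) cells. In WT libraries, exons 1 to 17 had 0.911, 1.08 and 0.806 CPM per kb and exons 18 to 105 had 0.889, 1.00 and 0.897 CPM per kb. In MUL1(-/-) libraries, exons 1 to 17 had 1.45, 1.36 and 0.890 CPM per kb and exons 18 to 105 had 5.52, 5.41 and 5.76 CPM per kb. The mean for MUL1(-/-) was 1.31 CPM per kb over exons 1 to 8 and 1.16 over exons 9 to 17. It was 4.62 over exons 18 to 39, 5.92 over exons 40 to 61, 7.27 over exons 62 to 83 and 6.65 over exons 84 to 105. The matching WT means were 1.05, 0.841, 0.907, 1.06, 1.31 and 0.896 CPM per kb, with no rise towards the last exons.

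The step was also described by single exon bins, the segments into which the tables divide the exons. The division was placed where it separates the log2 ratios of these bins most, so they do not test it. Of the bins of RYR2, 108 had a mean of at least 10 counts over the 6 libraries. Among the 15 of these before the intron, the log2 ratio had a median of 0.43 and ran from -0.20 to 0.76, and 1 bin was higher in every MUL1(-/-) library than in any WT library. Among the 93 after the intron, the median was 2.55, the range 1.73 to 3.29, and 92 bins were higher in every MUL1(-/-) library than in any WT library. Some bins after the intron reached the mean of 10 counts only through the MUL1(-/-) libraries, which favours high ratios there. An example is a bin with 1, 3 and 7 counts in WT and 16, 17 and 21 counts in MUL1(-/-) libraries. The highest ratio before the intron was therefore below the lowest ratio after it.

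**Figure D1:**
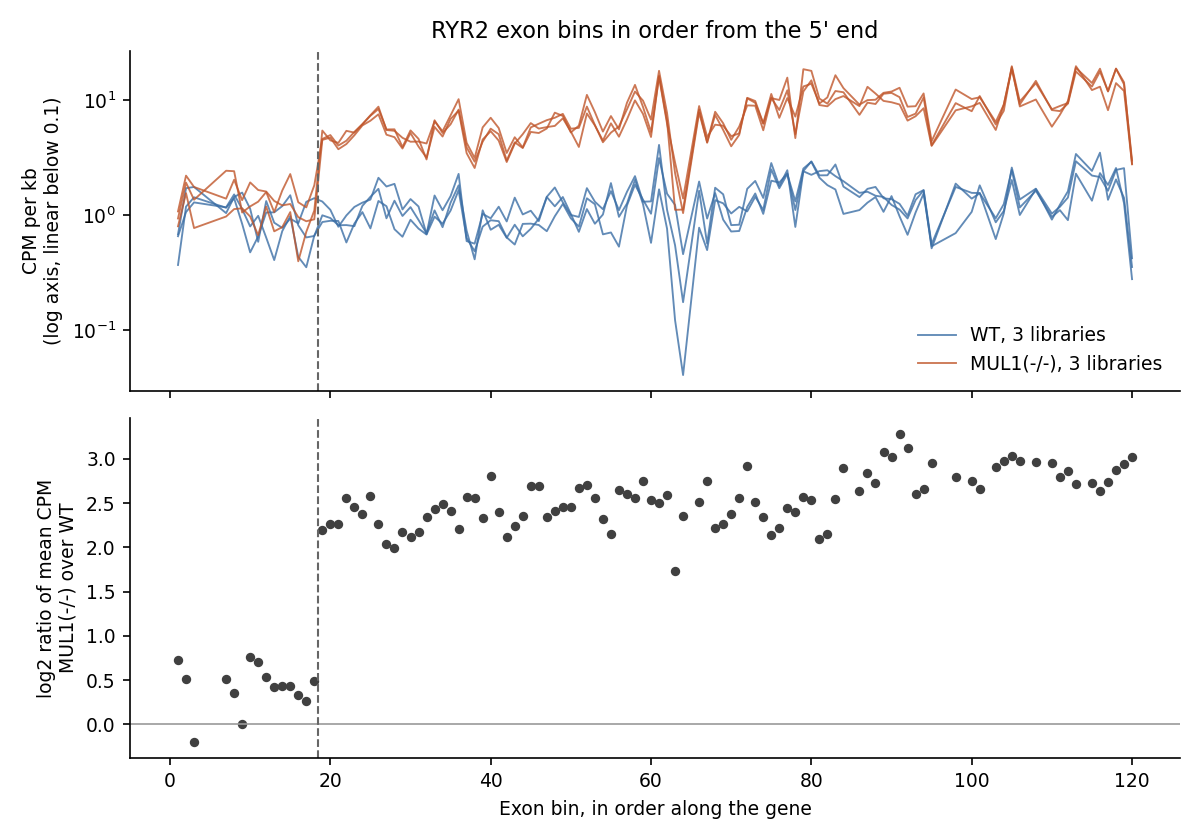
RYR2 by exon bin from the 5′ end. The upper plot gives CPM per kb (log axis, linear below 0.1) in each WT and MUL1(-/-) library, the lower plot the log2 ratio of mean CPM for the 108 bins with a mean of at least 10 counts, and the dashed line marks the intron between exons 17 and 18. The genotypes lie closer left of the line (median log2 ratio 0.43) than right of it (median 2.55).

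GENCODE 29 lists 7 transcripts of RYR2. RYR2-202 and RYR2-201 start before the intron, 0 start within it, and 5 start after it. The nearest of those 5, RYR2-206, starts 182958 bases past the beginning of exon 18, while exon 18 itself was already higher. Only 1 other gene is annotated inside the intron, MIR4428, a microRNA gene at chr1:237471119-237471191 on the plus strand, 1931 bases past exon 17. Its bin held 4, 3 and 3 counts in WT and 24, 23 and 54 counts in MUL1(-/-) libraries, and it was the only place within this intron where the tables count reads. In the WT libraries these counts were at or just above the floor of 3 counts. The libraries were made with an mRNA kit, so the counts are reads that touch the 73-base hairpin and not the mature microRNA. The mature microRNA is shown because its gene lies within the intron, with its seed (bases 2 to 8) in capitals as listed by RefSeq (GRCh38.p14):
hsa-miR-4428: cAAGGAGAcgggaacauggagc
Another small RNA gene lies further upstream, in intron 1. RN7SKP195 had 3, 11 and 2 counts in WT and 6, 9 and 2 counts in MUL1(-/-) libraries, so its groups overlapped. In intron 27, downstream of the step, RF00402 on the opposite strand had 0, 1 and 1 counts in WT and 8, 4 and 0 counts in MUL1(-/-) libraries, at or under the floor of 3 counts in all WT libraries.

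The promoter at the annotated start of RYR2 lies next to exon 1. Exon 1 had 17, 35 and 30 counts in WT libraries and 43, 49 and 36 counts in MUL1(-/-) libraries. Scaled to CPM these did not overlap, the log2 ratio was 0.72, and exon 1 was the 1 bin without overlap among the 15 bins before the intron with a mean of at least 10 counts, although its ratio was below that of every bin after the intron. Of the transcripts that start before the intron, RYR2-202 starts at 237042205 and RYR2-201 further downstream, at 237270497. The RefSeq promoter window (GRCh38.p14) runs from 250 bases before to 50 after the start. It is shown because the start of RYR2-202 lies in it, with each CG dinucleotide in capitals:
RYR2 promoter, chr1:237041934-237042233: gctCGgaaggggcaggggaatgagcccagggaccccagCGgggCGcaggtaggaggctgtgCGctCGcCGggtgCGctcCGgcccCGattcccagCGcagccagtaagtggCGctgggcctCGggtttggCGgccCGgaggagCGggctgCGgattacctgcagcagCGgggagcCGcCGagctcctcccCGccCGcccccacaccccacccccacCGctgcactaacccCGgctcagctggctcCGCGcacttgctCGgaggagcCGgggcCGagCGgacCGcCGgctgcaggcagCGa
It holds 32 CG dinucleotides, and 18.9% of 35116 promoter windows of this length hold as many or more (median 14). No methylation or binding was measured in this series.

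To see how often a gene differs along its length, each gene with at least 20 bins of a mean of at least 10 counts was divided by bin order into 3 parts of equal bin number. Over the 6497 such genes, the log2 ratio of the last part minus that of the first had a median size of 0.09 and a 95th percentile of 0.38. RYR2 had 0.85 and was number 33 by size. The other genes of the group with enough bins, ITPR1, ITPR2, ITPR3, ATP2A2, ATP2A3 and STIM1, had differences between -0.12 and 0.07, below that 95th percentile in size. This comparison shares its samples with the choice of the genes and is a description.

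RYR1, the channel of skeletal muscle, and RYR3, a channel found at low levels in many tissues, were the least abundant genes of the group. RYR1 had 1.57, 1.46 and 1.45 CPM in WT and 3.05, 2.80 and 1.72 CPM in MUL1(-/-) libraries. The groups did not overlap, but the third MUL1(-/-) library stood nearer to WT than to the other two. The log2 fold change of RYR1 was 0.75 ± 0.18 (SE), with 0.60 to 0.97 when 1 library was left out. RYR3 had 0.685, 0.679 and 1.24 CPM in WT and 1.78, 1.51 and 2.66 CPM in MUL1(-/-) libraries. Its groups did not overlap either, and the third library of each genotype was the highest of its genotype. The log2 fold change of RYR3 was 1.20 ± 0.25 (SE), with 0.93 to 1.54 when 1 library was left out, on 87 to 156 counts in the WT libraries and 189 to 330 counts in the MUL1(-/-) libraries. Of the RYR3 counts, 17.8% lay in bins that another gene's exon touches. RYR1 had 0 bins and RYR3 1 bin with a mean of at least 10 counts, so that no profile along either gene could be drawn at this depth.

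RYR2 made up most of the ryanodine receptor RNA per length in both genotypes. The 3 genes together had 1.02, 1.14 and 1.04 CPM per kb in WT libraries and 5.33, 5.20 and 5.44 CPM per kb in MUL1(-/-) libraries. The RYR2 share of this sum was 87.2% ± 1.81 (SD, n = 3) in WT and 95.2% ± 0.424 in MUL1(-/-). Because the higher level of RYR2 lay mostly in exons 18 to 105, the larger sum does not count whole RYR2 transcripts.

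The IP3 receptors showed smaller differences, and only ITPR1 had groups that did not overlap. ITPR1, a receptor abundant in neurons, had 47.0, 47.5 and 37.8 CPM in WT and 34.4, 37.0 and 31.1 CPM in MUL1(-/-) libraries. Its log2 fold change was -0.37 ± 0.10 (SE), and the third WT library lay close to the second MUL1(-/-) library. Of its 68 bins with a mean of at least 10 counts, 67 were lower in MUL1(-/-) libraries by the ratio of means, with 26 of them free of overlap, a median log2 ratio of -0.38 and a range from -0.69 to 0.11. ITPR1 thus was lower along its length, with 1 bin as an exception.

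ITPR2, the IP3 receptor most sensitive to its ligand, had 55.3, 54.5 and 38.9 CPM in WT and 48.9, 51.1 and 47.3 CPM in MUL1(-/-) libraries. The third WT library was below, and the others above, all MUL1(-/-) libraries. The log2 fold change of ITPR2 was -0.01 ± 0.11 (SE). ITPR3, the receptor prominent in secretory epithelia, had 143, 135 and 113 CPM in WT and 137, 134 and 128 CPM in MUL1(-/-) libraries. Its groups overlapped, and the log2 fold change was 0.03 ± 0.08 (SE). In the third WT library all 3 IP3 receptors and STIM1 were lowest among the WT libraries. Of the ITPR3 counts, 9.90% lay in bins that another gene's exon touches.

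The makeup of the IP3 receptor family moved less than its WT spread in sum and by a few percent in shares. The 3 genes summed to 20.6 ± 2.70 CPM per kb in WT and 20.03 ± 0.764 in MUL1(-/-) (SD, n = 3). The share of ITPR1 was 16.16%, 16.97% and 16.77% in WT libraries and 13.07%, 13.96% and 12.61% in MUL1(-/-) libraries, without overlap. ITPR3 had 64.4%, 63.1% and 65.6% against 68.0%, 66.3% and 67.8%, also without overlap. ITPR2 had 17.6% to 19.9% in WT and 19.0% to 19.7% in MUL1(-/-) libraries, which overlapped.

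The SERCA pumps were nearly level between the genotypes. ATP2A2, which encodes the SERCA2 pump present in most cells, had 453, 430 and 431 CPM in WT and 441, 453 and 455 CPM in MUL1(-/-) libraries. The groups overlapped, and the log2 fold change was 0.04 ± 0.06 (SE). ATP2A3, the SERCA3 pump of blood cells and epithelia, had 6.50, 5.86 and 5.95 CPM in WT and 6.53, 7.36 and 7.13 CPM in MUL1(-/-) libraries. Its groups did not overlap, though the nearest libraries had 6.50 and 6.53 CPM, and its log2 fold change was 0.20 ± 0.10 (SE). ATP2A2 made up 97.3% of the pump RNA per length in WT and 97.0% in MUL1(-/-).

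Although the total of ATP2A2 was level, some of its bins were not. Of its 45 bins with a mean of at least 10 counts, 8 were higher and 7 lower in MUL1(-/-) libraries without overlap. The share of such bins over all genes was not computed. The log2 ratio ran from -1.28 to 0.53. Its lowest value came from a bin with 13, 14 and 26 counts in WT and 4, 5 and 12 in MUL1(-/-) libraries. Over the 37 bins with at least 50 counts in every library of a genotype, the log2 ratio ran from -0.39 to 0.53. ATP2A2-204 encodes SERCA2b, the form of most tissues, and ATP2A2-201 encodes SERCA2a, the form of heart muscle; they end in different exons. The bins at the 3′ end that only ATP2A2-204 of the pair holds, within chr12:110346322-110347326, had 54.5, 50.8 and 52.7 CPM per kb in WT and 45.3, 52.9 and 52.4 CPM per kb in MUL1(-/-) libraries. These overlapped, with a log2 ratio of -0.07. The bins at the 3′ end that only ATP2A2-201 holds, within chr12:110350292-110351090, had 14.7, 13.6 and 14.6 CPM per kb in WT and 10.2, 11.8 and 11.9 CPM per kb in MUL1(-/-) libraries. All MUL1(-/-) libraries were lower there, with a log2 ratio of -0.34. At the 5′ end, within chr12:110281116-110281680, the bins of ATP2A2-201 absent from ATP2A2-204 had 21.3, 16.5 and 18.8 CPM per kb in WT and 24.1, 24.5 and 25.3 CPM per kb in MUL1(-/-) libraries. There all MUL1(-/-) libraries were higher, with a log2 ratio of 0.39. The bins that separate ATP2A2-201 from ATP2A2-204 thus differed in opposite directions at the ends of the gene. Between the 3′ stretches of the pair lie further bins, with log2 ratios of -0.301, -0.196, -0.172 and -0.215. The lower level at the 3′ end was therefore not particular to the bins of ATP2A2-201. Other transcripts of the gene may share any of these bins.

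MCU, the pore of the uniporter, was lower in MUL1(-/-) libraries. It had 38.5, 37.9 and 36.6 CPM in WT and 22, 23.8 and 24.3 CPM in MUL1(-/-) libraries. The groups lay well apart, with means of 37.6 ± 0.947 and 23.4 ± 1.23 CPM (SD, n = 3). The log2 fold change was -0.69 ± 0.08 (SE), a 1.61-fold lower level. All 18 bins with a mean of at least 10 counts were lower by the ratio of means, from -0.85 to -0.47, and 14 of them did not overlap. In contrast to RYR2, the difference of MCU therefore ran along the gene.

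STIM1, the ER Ca2+ sensor, had 65.0, 60.9 and 52.3 CPM in WT and 54.7, 56.4 and 54.6 CPM in MUL1(-/-) libraries. The groups overlapped, and the log2 fold change was -0.10 ± 0.08 (SE). The transcript STIM1-220, which encodes the long form of the sensor known from muscle, has an additional exon stretch of 318 bases at chr11:4086544-4086861. It had 18, 34 and 23 counts in WT and 18, 14 and 12 counts in MUL1(-/-) libraries. This corresponded to 0.592 and 0.368 CPM per kb, against 8.38 and 7.80 CPM per kb for STIM1 as a whole, and the groups touched at 18 counts.

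**Figure D2:**
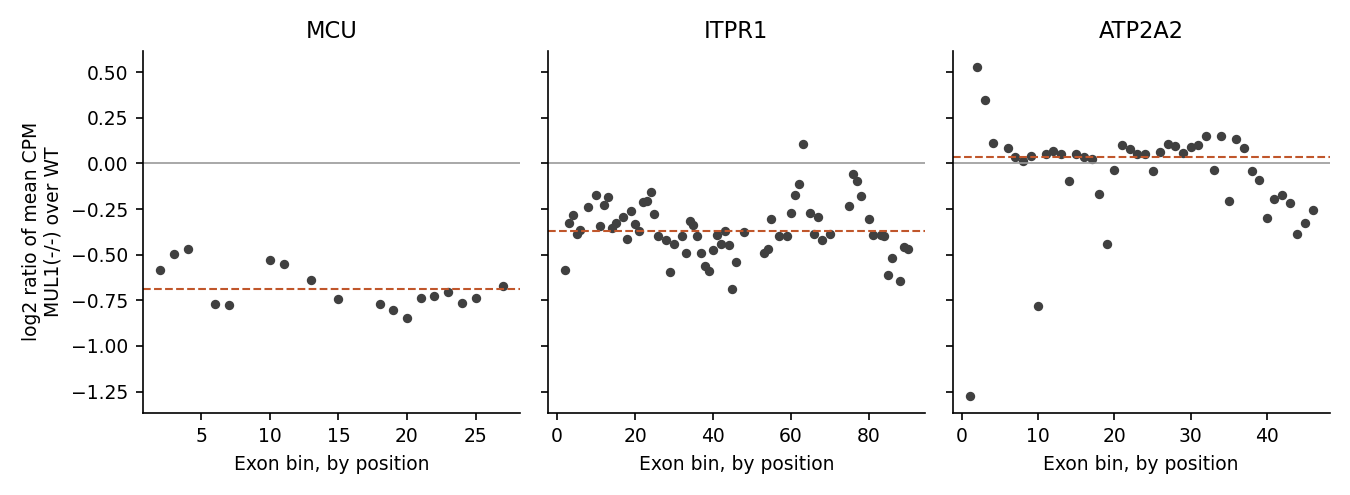
Log2 ratio of mean CPM, MUL1(-/-) over WT, for each bin of MCU, ITPR1 and ATP2A2 with a mean of at least 10 counts, in order of position (all 3 genes lie on the plus strand). The dashed line is the log2 fold change of the whole gene, -0.69 for MCU, -0.37 for ITPR1 and 0.04 for ATP2A2, and the bins of ATP2A2 fall on both sides of 0.

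Compared per length, the order of the 10 genes changed in 1 place by a wide margin. In WT cells ATP2A2 stood first with 31.9 CPM per kb, ahead of ITPR3 with 13.2. STIM1 with 8.38 and MCU with 8.30 were not apart, nor were ITPR2 with 3.93 and ITPR1 with 3.42, nor RYR2 with 0.930 and ATP2A3 with 0.885. RYR1 with 0.0938 and RYR3 with 0.0426 came last. In MUL1(-/-) cells RYR2 stood at 5.07 CPM per kb, number 5 in the order and not apart from MCU with 5.16. The other genes there had 32.7 for ATP2A2, 13.5 for ITPR3, 7.80 for STIM1, 3.89 for ITPR2, 2.65 for ITPR1, 1.02 for ATP2A3, 0.158 for RYR1 and 0.0974 for RYR3, the last pair not being apart. Reads spanning more than 1 bin are counted more than once, which raises the level of genes with many short bins. With bins of at least 200 bases alone, MCU stood above STIM1 in WT, and RYR2 was number 4 and MCU number 5 in MUL1(-/-), otherwise in the same order.

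Counted together, 6 of the 10 genes had genotypes that did not overlap, 4 of them higher and 2 lower in MUL1(-/-), where 48.5% of all tested genes did not overlap. In the fit across all genes, those past the threshold on the adjusted p were 3 higher, RYR1, RYR2 and RYR3, beside 18.8% of all tested genes, and 2 lower, ITPR1 and MCU, beside 18.7%. With an absolute log2 fold change above 1 as well, they were 2 higher, RYR2 and RYR3, beside 4.23% of all tested genes, and 0 lower, beside 3.87%. The median log2 fold change was 0.03 over the 10 genes and -0.01 over all tested genes. Because the genes were chosen with this comparison known, these counts are not read further.

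The 10 tested genes on each side of a gene on its chromosome give its surroundings; HEK293 cells carry an altered set of chromosomes. The median of the 20 neighbours of MCU was -0.52, with 9 lower and 0 higher at an adjusted p under 0.05. These neighbours lay on chromosome 10 between 71964365 and 73131828. The median was -0.47 with 5 and -0.44 with 20 genes on each side, with 3 of 10 and 22 of 40 neighbours lower and 0 higher. Whether MCU differed apart from these neighbours was not tested. Around ATP2A3 on chromosome 17, the median of the 20 neighbours was 0.64, with 13 higher and 0 lower, above the 0.20 of ATP2A3 itself. Around RYR2 it was 0.30, with 6 higher and 1 lower, far below the 2.45 of RYR2 and near the 0.40 of exons 1 to 17. Around RYR1 it was 0.31, with 0.44 and 0.18 for 5 and 20 genes on each side, and around RYR2 0.29 and 0.18. Around RYR3 the sign depended on the flank, with 0.31, 0.07 and -0.05 for 5, 10 and 20 genes on each side. The IP3 receptors, ATP2A2 and STIM1 had neighbours with medians from -0.16 to -0.08 at 10 genes on each side, and from -0.26 to -0.04 at 5. The part of copy number in any of these values was not tested.

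By the smallest root mean square difference of centred log2 CPM over the 6 libraries, among 15857 genes, those most like the ryanodine receptors were named. For RYR2 they were ENSG00000268355, SELENOP and CCDC152, with differences of 0.13, 0.14 and 0.15. SELENOP encodes a secreted selenium carrier, and its exons overlap those of CCDC152 on the genome, so these may share reads. For RYR3 they were NOXO1, FOXD4 and RIPK1, with 0.13, 0.16 and 0.16, and for RYR1 they were SPTBN4, GDF6 and NUDT19-DT, with 0.07, 0.08 and 0.10. The log2 fold changes of these genes were 2.63, 2.35 and 2.44 beside 2.45 for RYR2. They were 1.24, 1.07 and 1.06 beside 1.20 for RYR3, and 0.83, 0.64 and 0.68 beside 0.75 for RYR1. Likeness carries the difference between genotypes by which the receptors were chosen, so it cannot show shared expression apart from that difference. Low WT means were 0.371 CPM for ENSG00000268355 and 0.867 CPM for RYR3. Likeness within a genotype was not tested.

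Other genes of Ca2+ handling were taken from 8 lists with 116 genes, of which 103 were tested. By edgeR's quasi-likelihood test, 17 of these rose, 22 fell and 64 did not pass an adjusted p of 0.05, which is 16.5% and 21.4% of those tested, near the 18.8% and 18.7% of all tested genes, with which the counts per list below are also to be read. Their median log2 fold change was 0.03. With an absolute log2 fold change above 1, 1 rose and 2 fell.

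Among 17 tested partners of the ryanodine receptors, 2 rose and 3 fell. TMEM38A encodes the channel TRIC-A, which lets potassium balance the charge of released Ca2+. It had 12.96, 12.83 and 15.37 CPM in WT and 5.79, 5.10 and 4.63 CPM in MUL1(-/-) libraries, without overlap, and fell by 1.41 ± 0.11 (SE) on the log2 scale (edgeR adjusted p = 2.68e-07). FKBP1B encodes calstabin-2, which binds RYR2 and keeps it closed. It had 5.10, 4.83 and 5.68 CPM in WT and 2.72, 2.40 and 2.75 CPM in MUL1(-/-) libraries, and fell by 0.99 ± 0.12 on the log2 scale (edgeR adjusted p = 1.44e-05). Its relative FKBP1A, calstabin-1, which binds RYR1, overlapped between the genotypes with 290 ± 9.80 and 279 ± 23.5 CPM (SD, n = 3). The remaining gene that fell was SRI, encoding sorcin, and those that rose were CALM3, a calmodulin gene, and JSRP1, named here after their values were seen. RYR2 and FKBP1B thus differed in opposite directions.

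Of the 16 tested genes of mitochondrial uptake and release, 3 rose and 4 fell. MCUB, SMDT1 and MICU2, subunits of the uniporter complex, did not pass the test. MCUB, a pore subunit that lowers uptake, had a log2 fold change of -0.02, SMDT1, an essential small subunit, had 0.03, and MICU2, a regulatory subunit, had -0.14, with edgeR adjusted p of 0.870, 0.805 and 0.220.

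In store-operated entry, 1 of 11 tested genes rose and 3 fell. ORAI2, a plasma membrane channel opened by STIM proteins, had 40.2, 38.5 and 45.0 CPM in WT and 38.2, 32.5 and 33.8 CPM in MUL1(-/-) libraries, and fell by 0.24 ± 0.09 on the log2 scale (edgeR adjusted p = 0.0354). The call of ORAI2 was lost without WT library 1 or 3 (log2 fold changes -0.26 and -0.18) and without MUL1(-/-) library 2 or 3 (-0.18 and -0.22). ORAI1, the main channel of store-operated entry, had 12.9 CPM in both genotypes, and STIM2, the sensor of small store changes, had 24.5 ± 4.04 and 23.8 ± 2.40 CPM (SD, n = 3), with edgeR adjusted p of 0.986 and 0.792. Named after their values were seen, ORAI3 and CRACR2B fell and SARAF, which slows the entry, rose.

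Of the 6 tested genes of the SERCA pumps and their regulators, 0 passed the edgeR test. ATP2A1, the pump of fast skeletal muscle, had 10.3 ± 0.736 CPM and 11.0 ± 0.147 CPM in the genotypes (SD, n = 3). Its log2 fold change of 0.09 depended on the bins counted, with 0.47 (edgeR adjusted p = 0.00569) for unshared bins alone and -0.23 for the most counted bin. PLN, phospholamban, which restrains SERCA2, had 0.182 and 0.146 CPM, and SLN, its counterpart of skeletal muscle, was below the filter with 0.028 and 0.037 CPM.

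Among 21 tested regulators of IP3 receptors and IP3 turnover, 5 rose and 6 fell. ITPKB, a kinase that phosphorylates IP3, had 7.41, 7.24 and 7.48 CPM in WT and 9.09, 9.05 and 9.37 CPM in MUL1(-/-) libraries, with a log2 fold change of 0.31 ± 0.09 (SE, edgeR adjusted p = 0.0148). The call was lost without WT library 1 or 2, at 0.31 and 0.30. AHCYL1, also called IRBIT, which competes with IP3 for its receptor, had 137 ± 11.2 and 139 ± 4.07 CPM (SD, n = 3; edgeR adjusted p = 0.794).

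Of 12 tested genes that export Ca2+ across the plasma membrane or into the Golgi, 2 rose and 2 fell. ATP2B3, a plasma membrane pump known from neurons, had 3.89, 4.33 and 3.56 CPM in WT and 0.893, 0.871 and 0.428 CPM in MUL1(-/-) libraries, and fell by 2.42 ± 0.21 on the log2 scale (edgeR adjusted p = 5.3e-07). SLC24A2, a sodium, calcium and potassium exchanger outside the rule for named genes and named after its values were seen, rose from 10, 5 and 3 counts to 28, 51 and 16 counts. ATP2B4, a widely expressed pump, had 26.1 ± 0.757 and 30.3 ± 1.76 CPM (SD, n = 3), with a log2 fold change of 0.21 ± 0.08 (edgeR adjusted p = 0.0389). This call was lost on leaving out any library but the first MUL1(-/-) library, at 0.17 to 0.24. ATP2B1 and ATP2C1, a plasma membrane and a Golgi pump, had log2 fold changes of -0.08 and -0.05 and did not pass.

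Among 12 tested ER luminal Ca2+-binding proteins, 2 rose and 3 fell. CALR, calreticulin, the main Ca2+ buffer of the ER, had 939 ± 141 and 1092 ± 15.8 CPM, and HSPA5, the chaperone BiP, 285 ± 86.7 and 340 ± 28.5 CPM (SD, n = 3), with overlapping groups and edgeR adjusted p of 0.0591 and 0.187. Without the third WT library both passed, with log2 fold changes of 0.34 and 0.53. Of 8 tested endolysosomal channel genes, 2 rose and 1 fell.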

How the data were processed

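RNA of HEK293 WT and MUL1(-/-) cells was sequenced in 3 libraries each, grouped by the labels. For each exon bin, the authors deposited the raw count, not normalized. The submitters' processing notes name Trimmomatic 0.36, STAR 2.5.2b and the GRCh38 build; the counting program is not given in the sources used here. The design had assumed counts per gene, so the 597973 bins were summed per gene. Bins under joined identifiers went to the single gene with a same-strand GENCODE 29 exon there, and 4.37% of counts went to none. A read is counted in every bin it touches, without strand, so sums exceed reads, antisense partners cannot be told apart, and the floor of 3 counts covers counting error only.

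Gene sums went into edgeR 4.0.16 under R 4.3.3 (TMM, filterByExpr, quasi-likelihood test, Benjamini-Hochberg over 25125 genes, adjusted p under 0.05, with and without an absolute log2 fold change above 1). CPM uses effective library sizes, and likeness used a prior count of 2. DESeq2 1.42.0 gave an alternative. Python 3.11.15 with pandas 2.3.3, numpy 2.4.6 and matplotlib 3.10.9 made the tables and figures. The scripts were tested on simulated data. Pairs of replicates differed by 2.64 to 9.29 times sampling noise (chi-square over degrees of freedom). This does not show whether the libraries came from separate cultures. All were kept as separate samples.

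The 10 genes, the lists and the rules were chosen with earlier results of these data known. Named genes of the lists were a fixed set, plus up to 2 in each direction per list past both thresholds with a mean of at least 1 CPM. Likeness was computed for the up to 3 of the 10 genes with the largest change and a mean of at least 1 CPM. Bins with a mean of at least 10 counts and the division of RYR2 were choices made after the bin counts were seen; bins with at least 50 counts in every library of a genotype, the planned rule, left none of the bins of RYR2 before exon 18. Alternatives were DESeq2, RLE factors, a fit without the filter, a filter of at least 1 CPM in 3 or more samples, a replicate block, the most counted bin, unshared bins and each replicate left out. Protein sequences were not used here. Some results that the rule for named genes covers are not reported here.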

Additional observations from a re-analysis of the deposited data

How the results depend on the processing

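The direction of RYR2, RYR3, RYR1, ATP2A3, ITPR1, MCU and STIM1 held in all 13 alternatives, with log2 fold changes of 2.41 to 2.97, 0.93 to 1.54, 0.13 to 0.97, 0.15 to 0.26, -0.47 to -0.31, -0.72 to -0.63 and -0.19 to -0.04. The extremes of 2.97 for RYR2 and 0.13 for RYR1 came from the most counted bin, and RYR1 and RYR3 rest on few counts. ITPR2, ITPR3 and ATP2A2 took both signs, with -0.17 to 0.10, -0.07 to 0.10 and -0.06 to 0.07.

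With at least 1 CPM in at least 3 samples, 331 genes were called higher and 446 lower in all, against 1064 and 973, fewer genes being tested. Of the Ca2+ handling genes outside the 10, the count past both thresholds, 1 higher and 2 lower, became 0 higher under that filter and 2 higher without a filter or with unshared bins only. Leaving out 1 replicate at a time, it ranged from 1 to 3 higher and from 2 to 4 lower, the extremes being without WT replicate 3 and without MUL1(-/-) replicate 3. The counts by adjusted p alone ranged from 14 to 21 higher and from 17 to 24 lower. MUL1 had log2 fold changes of 0.07 to 0.24 on leaving out 1 replicate.

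Genes near 0 changed sign. The most counted bin gave 0.01 for MICU2, -0.02 for ORAI1, -0.23 for ATP2A1, 0.01 for ATP2C1 and 0.00 for AHCYL1, and no filter gave 0.01 for MCUB. Leaving out 1 replicate moved MCUB between -0.04 and 0.01, SMDT1 between -0.03 and 0.11, STIM2 between -0.14 and 0.09, ORAI1 between -0.06 and 0.08, FKBP1A between -0.09 and 0.03, ATP2C1 between -0.09 and 0.00 and AHCYL1 between -0.04 and 0.08. ORAI2 lost its call in 5 alternatives, ATP2B4 in 6 and ITPKB in 2, while CALR gained one in 5, HSPA5 in 2 and ATP2A1 in 1. The cause was not tested.

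Same-numbered replicates of the genotypes had correlations of deviations of -0.08, 0.16 and 0.10, and pairs with different numbers ran from -0.18 to 0.10. Deviations from the mean of 3 libraries depend on each other. These values therefore cannot show whether libraries of the same number were handled together. With the replicate number as a block, 1955 genes were called against 2037, 1920 of them in both, and RYR2 kept its direction. CALR alone of the named genes changed its call under the block, to a log2 fold change of 0.23 with an edgeR adjusted p of 0.0345.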
